A study of Mus musculus with 149 samples.

Results

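Il13ra2, Il4ra, Il13ra1, Stat6 and Gata3, receptor chains for Il4 and Il13 and transcription factors tied to these cytokines, were described in lungs of BALB/c mice. They are 5 of the 13494 genes measured and were taken by name. Each gene was read from the probe set with the highest mean among those annotated to that gene alone, and the other probe sets served as a check (10 probe sets in all). Whole lung was profiled on Affymetrix arrays, 1 per animal, with 76 arrays of OVA and 73 of naive mice. The groups were OVA-sensitized and naive mice challenged with 150, 500 or 1500 ng of thymic stromal lymphopoietin (TSLP), with 0.1% MSA, an abbreviation the labels leave unexplained and called buffer here, or with saline, and killed 24 or 6 h later. The 20 groups hold 6 to 8 arrays, since not every animal of the design was analysed here. The sources used here do not give the protocol of sensitization, the route of challenge or the age and sex of the mice.

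Il4 and Il13 are cytokines of allergic inflammation. Il4ra pairs with the common gamma chain Il2rg to bind Il4, and with Il13ra1 to bind Il4 or Il13. The bound receptors activate Jak kinases, and Stat6 docks on Il4ra, is phosphorylated and switches on genes of mucus cells, alternatively activated macrophages and dendritic cells. Il13ra2 binds Il13 tightly and is best known as a decoy receptor that keeps Il13 from the signalling complex. Gata3 is the transcription factor that defines Th2 cells and group 2 innate lymphoid cells, the main makers of Il13. TSLP, released by airway epithelium, acts on dendritic cells and on both of these lymphocyte types.

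Il13ra2 set the OVA lungs apart: its mean was higher in each of the 10 OVA groups than in any of the 10 naive groups. In OVA lungs given TSLP, Il13ra2 and Gata3 rose over the buffer group at 24 h with every dose (limma, adjusted p below 0.05, called passing here), Il13ra2 by 2.06-fold, 2.55-fold and 2.18-fold and Gata3 by 1.42-fold, 1.46-fold and 1.37-fold for 150, 500 and 1500 ng. Of all genes, 10.5%, 11.8% and 38.5% passed in these 3 comparisons. At 6 h after 1500 ng all 5 genes passed the test in OVA lungs, Stat6 alone downward, where 60.7% of all genes passed. These directions are those of the probe set of highest mean. The Il13ra1 probe sets did not move together, and the second Stat6 probe set did not pass. In naive lungs neither Il13ra2 nor Gata3 passed against buffer at any dose or time. In whole lung, fewer cells of a type and less RNA per cell cannot be told apart. The rises of Il13ra2 and Gata3 at 24 h were measured against a buffer group that lay below the saline group, and against saline neither passed the test after 1500 ng. A measure of RNA quality also differed between the 1500 ng and buffer groups, at both times and in both kinds of lung, and with it as a covariate only Il13ra2 of the 5 still passed in OVA lungs at 6 h. Levels and differences are given on the log2 scale unless called a fold.

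Il13ra2 and Gata3 were called together in OVA lungs at 24 h after every dose, so the sequences around their start sites are shown. They run from 250 bases before to 50 after the start and are credited to RefSeq on mouse build GRCm38.p6. Il13ra2 lies at chrX:147429143-147429442 and Gata3 at chr2:9878551-9878850, both on the minus strand, and they are written 5′ to 3′ with any match to a GATA word in capitals:
Il13ra2: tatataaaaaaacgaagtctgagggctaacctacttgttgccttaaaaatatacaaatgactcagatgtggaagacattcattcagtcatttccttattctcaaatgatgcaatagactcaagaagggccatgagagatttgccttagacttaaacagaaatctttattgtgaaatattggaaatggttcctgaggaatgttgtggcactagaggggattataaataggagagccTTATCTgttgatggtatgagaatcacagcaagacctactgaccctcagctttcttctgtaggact
Gata3: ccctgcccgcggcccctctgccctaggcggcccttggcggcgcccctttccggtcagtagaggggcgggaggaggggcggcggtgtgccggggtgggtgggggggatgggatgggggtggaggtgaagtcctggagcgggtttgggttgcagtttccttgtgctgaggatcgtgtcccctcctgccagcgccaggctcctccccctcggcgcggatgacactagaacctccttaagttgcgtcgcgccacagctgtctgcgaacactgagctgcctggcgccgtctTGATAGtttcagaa
The words searched on both strands were TTC and GAA with any 4 bases between them, the spacing that Stat6 favours, and with any 3 bases, the spacing of other Stat proteins. The GATA words, 4 in all, were GATA after A or T and before A or G. Il13ra2 held 1 match, TTATCT, which is AGATAA on the opposite strand, beginning 15 bases before the start. Gata3 held 1 match, TGATAG, beginning 36 bases after the start. Neither window held a Stat word. Of 32851 mouse promoter windows of 300 bases, 6.95% held the Stat word of 4 bases, 8.3% that of 3 bases, 11.2% held AGATAA, 7.29% held TGATAG and 29.8% held any of the 4 GATA words. The windows differ in base composition, with 37.7% G and C in Il13ra2 and 67.3% in Gata3.

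A few facts of the arrays bear on what follows. The difference between the 3′ and 5′ beta-actin control probe sets, which grows as RNA is degraded or incompletely copied, had group means of 1.25 to 2.57 on the log2 scale. It was lower after 1500 ng TSLP than after buffer in OVA lungs at 6 h (1.26 ± 0.12 against 2.57 ± 0.26, SD, n = 8 each; exact permutation test, adjusted p = 0.00124). It was 1.61 ± 0.26 after 1500 ng (n = 8) against 2.14 ± 0.31 after buffer (n = 6) in naive lungs at 6 h (SD; exact permutation test, adjusted p = 0.0178). At 24 h it was higher after 1500 ng than after buffer, by 0.32 in OVA lungs (adjusted p = 0.00124) and by 0.32 in naive lungs (adjusted p = 0.0282; exact permutation tests, 20 tests in the family). Buffer and saline groups differed by 0.01 to 0.28 in size, with adjusted p of 0.405 to 0.919. On 6 arrays Krt4 and Krt13, keratins of the gullet lining, were more than 2 log2 units above their medians, with Krt13 at or above 10.4 against at most 6.06 on the other 143. Sftpc, the surfactant gene that marks lung epithelium, lay at 14.1 to 14.4 on every array.

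Il13ra2, the decoy receptor, was measured by 1 probe set and had the widest range of the 5 genes, 2.66 log2 units between its highest and lowest group means. In OVA lungs at 24 h it averaged 8.18 ± 0.65 after saline (SD, n = 7), 7.31 ± 0.84 after buffer (n = 8), 8.35 ± 0.63 after 150 ng (n = 8), 8.66 ± 0.67 after 500 ng (n = 7) and 8.44 ± 0.70 after 1500 ng (n = 7). The naive averages at 24 h were 5.99 ± 0.13 after saline, 6.16 ± 0.16 after buffer, 6.15 ± 0.15 after 150 ng, 6.09 ± 0.32 after 500 ng and 6.17 ± 0.19 after 1500 ng (SD, n = 8, 7, 6, 6 and 8). Every OVA group was above every naive group at this time, and within the OVA lungs the buffer group was the lowest. At 6 h in OVA lungs it averaged 7.85 ± 0.87 after saline (n = 8), 7.39 ± 0.60 after buffer (n = 8), 8.19 ± 0.75 after 150 ng (n = 7), 8.50 ± 0.81 after 500 ng (n = 8) and 8.57 ± 0.48 after 1500 ng (n = 8). The naive averages at 6 h were 6.42 ± 0.31 after saline, 6.33 ± 0.20 after buffer, 6.31 ± 0.22 after 150 ng, 6.47 ± 0.47 after 500 ng and 6.36 ± 0.31 after 1500 ng (SD, n = 8, 6, 8, 8 and 8). The OVA groups again lay above the naive ones, with buffer lowest among them. Of 76 OVA arrays, 58 were above the highest naive array, which stood at 7.46. None of the 19 gaps between neighbouring group means exceeded the larger SD of the pair. This includes the gap between the lowest OVA and the highest naive group, 0.837 against an SD of 0.844. The SD describes the spread of single arrays and not the precision of a mean, so these gaps do not test the order of neighbours. Differences between compared groups are tested below.

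**Figure D1:**
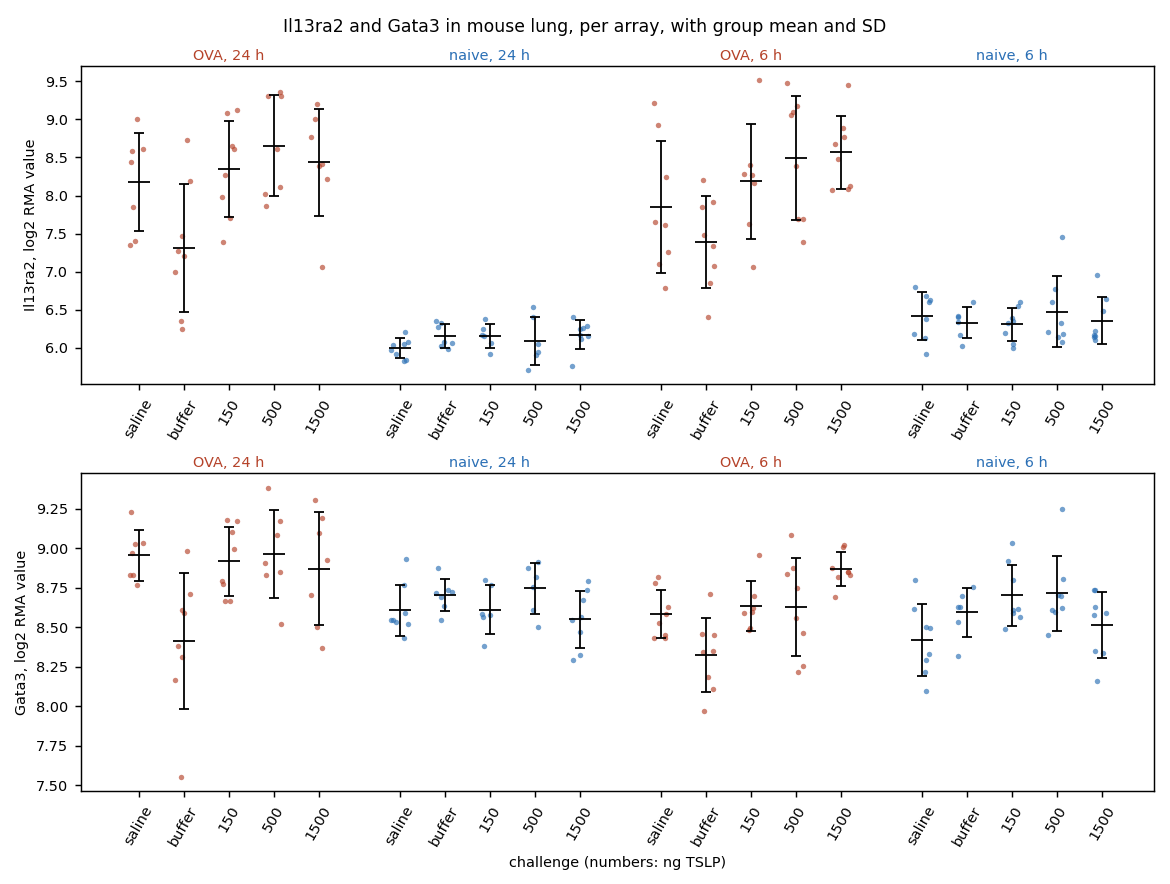
Il13ra2 (top) and Gata3 (bottom), log2 RMA values per array in 20 groups of 6 to 8 mouse lungs, with OVA in red, naive in blue, and bars for the group mean and SD. Il13ra2 group means are 7.31 to 8.66 in OVA lungs and 5.99 to 6.47 in naive lungs, while the Gata3 ranges of the 2 kinds of lung overlap.

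Set against naive lungs given the same challenge, Il13ra2 was higher in OVA lungs in all 6 comparisons made. At 24 h it was higher by 2.26 log2 units after 1500 ng (SE 0.28, adjusted p = 4.34e-11), by 1.15 after buffer (SE 0.28, adjusted p = 0.00353) and by 2.18 after saline (SE 0.28, adjusted p = 2.46e-10). At 6 h the difference was 2.21 after 1500 ng (SE 0.27, adjusted p = 3.67e-11), 1.06 after buffer (SE 0.29, adjusted p = 0.00251) and 1.43 after saline (SE 0.27, adjusted p = 2.41e-05). The arrays of the compared groups did not overlap after 1500 ng at either time or after saline at 24 h. These adjusted p-values come from limma over 13494 genes, of which 42.5% passed at 24 h after 1500 ng, 8.57% after buffer and 30.3% after saline, and 44.2%, 33.6% and 23.5% passed in the same order at 6 h. Of the other members, Gata3 was higher in OVA lungs after 1500 ng at 24 h (0.32, adjusted p = 0.0189) and 6 h (0.35, adjusted p = 0.00693) and after saline at 24 h (0.35, adjusted p = 0.0152). After 1500 ng at 6 h Il13ra1 was higher by 0.31 on its main probe set (adjusted p = 0.00535; -0.029 on its second) and Stat6 lower by 0.25 (adjusted p = 8.98e-06). Il4ra was lower in OVA than in naive lungs after buffer at 6 h, by 0.31 (adjusted p = 0.0171). In that comparison the beta-actin difference was 2.57 ± 0.26 in OVA lungs against 2.14 ± 0.31 in naive lungs (SD, n = 8 and 6; exact permutation test, adjusted p = 0.0214), and with it as a covariate the Il4ra call was lost (-0.25, adjusted p = 0.0764).

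Within OVA lungs Il13ra2 was higher again after TSLP. After 1500 ng at 24 h the lowest, median and highest values were 7.06, 8.41 and 9.20, against 6.24, 7.24 and 8.73 after buffer. The groups overlapped, and 6 of 7 arrays given 1500 ng lay above the buffer mean, a difference of 1.13 (SE 0.28, adjusted p = 6.44e-04). At 6 h the values were 8.07, 8.58 and 9.45 after 1500 ng, against 6.40, 7.41 and 8.21 after buffer. All 8 arrays given 1500 ng lay above the buffer mean, a difference of 1.18 (SE 0.27, adjusted p = 7.2e-05), and the ranges overlapped only slightly. The 150 ng dose passed the test at 24 h (1.04, SE 0.27, adjusted p = 0.00929) and not at 6 h (0.79, SE 0.28, adjusted p = 0.231). The 500 ng dose passed at 24 h (1.35, SE 0.28, adjusted p = 7.24e-04) and at 6 h (1.11, SE 0.27, adjusted p = 4.71e-04). The 3 doses at each time share 1 buffer group. Over the 3 doses the slope of Il13ra2 per 10-fold dose in OVA lungs was 0.09 at 24 h (95% interval -0.46 to 0.64) and 0.39 at 6 h (-0.16 to 0.94).

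In naive lungs the same test gave 0.01 at 24 h (95% interval -0.54 to 0.56) and 0.03 at 6 h (-0.54 to 0.60) for 1500 ng against buffer. OVA lungs exceeded naive lungs in their 1500 ng effect on Il13ra2 by 1.12 at 24 h (SE 0.39, adjusted p = 0.0781), which did not pass, and by 1.15 at 6 h (SE 0.40, adjusted p = 0.0191). With array weights the 24 h difference was called too (1.20, adjusted p = 0.00273). The 6 h difference was called, and with the beta-actin difference as a covariate it was 1.17 with an adjusted p of 0.0705. Of all genes, 4.42% were called in this difference at 24 h and 31.8% at 6 h.

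Against saline in place of buffer, Il13ra2 after 1500 ng differed by 0.26 at 24 h (SE 0.29, adjusted p = 0.54), which ends the call, and by 0.72 at 6 h (SE 0.27, adjusted p = 0.0148), which keeps it. The OVA buffer group at 24 h was lower than the saline group by a mean that did not pass the test (-0.87, SE 0.28, adjusted p = 0.0953), and that did with array weights (-0.98, adjusted p = 4.72e-04). With the beta-actin covariate the 1500 ng difference against buffer was 1.12 at 24 h (adjusted p = 0.0013) and 1.22 at 6 h (adjusted p = 0.0253), about as large as without it.

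**Figure D2:**
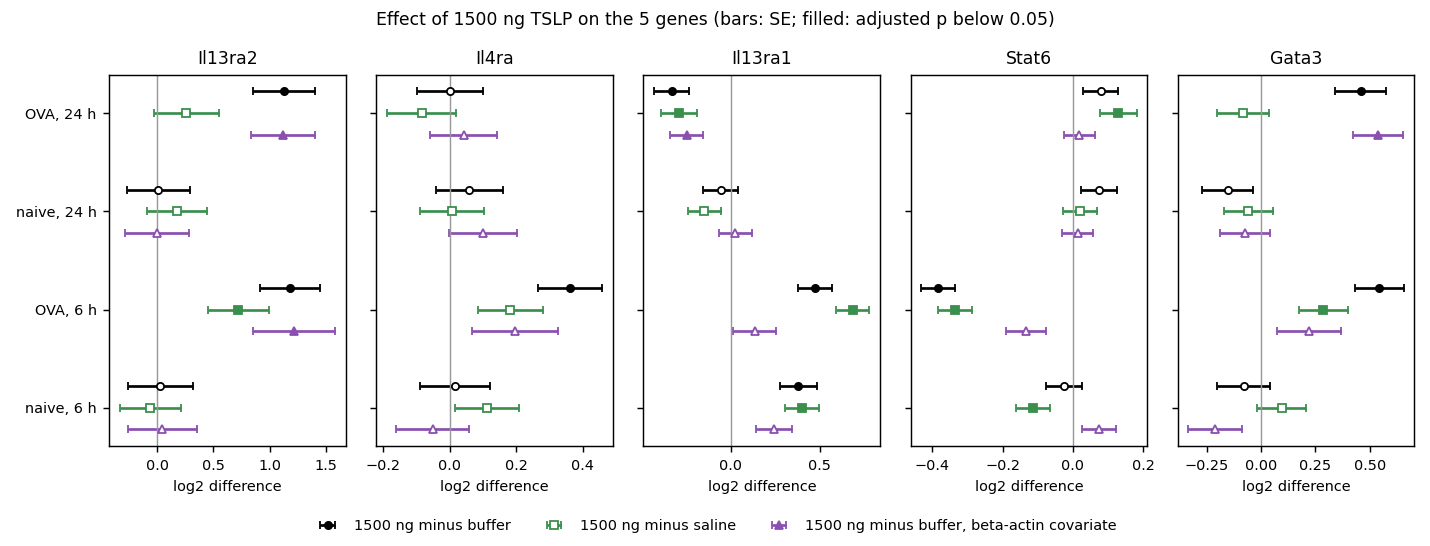
Log2 difference of 1500 ng TSLP from buffer, from saline, and from buffer with the beta-actin covariate, for 5 genes in 4 settings, with SE bars and filled symbols where the adjusted p is below 0.05. Each panel has its own axis. Il13ra2 in OVA lungs at 24 h stands at 1.13 against buffer and at 0.26 against saline, and Stat6 in OVA lungs at 6 h at -0.38 and, with the covariate, at -0.13.

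Il13ra2 varied with the transcript of its ligand Il13 from lung to lung. Over 76 OVA arrays, with each value taken as its deviation from its group mean, Pearson's r between Il13ra2 and Il13 was 0.882 (Spearman's rho 0.883). The same measure was 0.865 for Il5, 0.859 for Il4, 0.694 for the T cell receptor component Cd3e and 0.695 for Cd4. All of these values come from the same RNA of each lung, and with Gata3 the value was 0.432. Over 73 naive arrays r with Il13 was 0.592. That value rested in part on 1 array, replicate 8 of the naive 500 ng group at 6 h, which had Il13 at 8.50, Il13ra2 at 7.46 and Gata3 at 9.25, each the highest of all naive arrays. Without it r was 0.376 over 72 arrays. That array was singled out after its values were seen. Over the 20 group means the genes most like Il13ra2 among 7163 whose means ranged over at least 0.5 log2 units were Msx3 (r = 0.991), Il13 (0.99) and Ccl24 (0.988), and the least like was Krtap17-1 (-0.98).

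**Figure D3:**
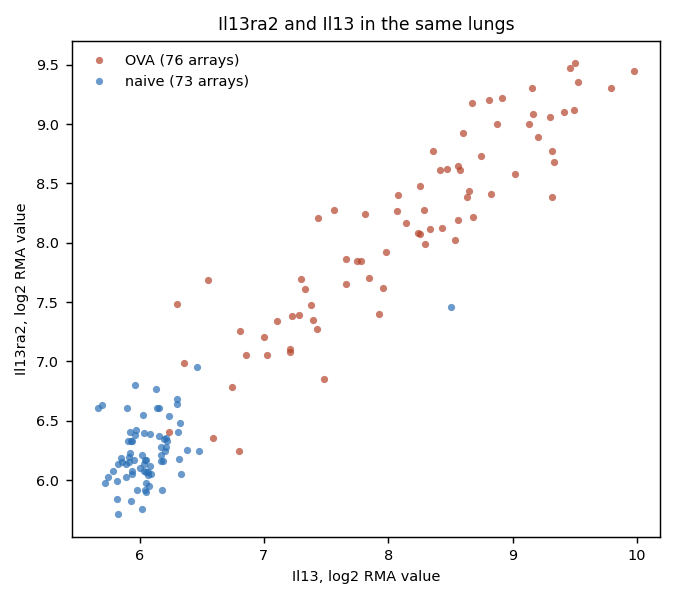
Il13ra2 against Il13, both as log2 RMA values, in 76 OVA (red) and 73 naive (blue) lungs, 1 point per array. OVA lungs spread along a rising band, and naive lungs cluster at low values of both, apart from the array at 8.50 for Il13 and 7.46 for Il13ra2.

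Il4ra, the chain shared by both signalling receptors, varied little: its group means ran from 10.94 to 11.38, a range of 0.45 log2 units. The OVA means at 24 h were 11.11 ± 0.10 after saline, 11.03 ± 0.43 after buffer, 11.14 ± 0.089 after 150 ng, 11.20 ± 0.22 after 500 ng and 11.03 ± 0.25 after 1500 ng (SD, n = 7, 8, 8, 7 and 7). The naive means at that time were 11.18 ± 0.059 after saline, 11.12 ± 0.16 after buffer, 11.13 ± 0.10 after 150 ng, 11.06 ± 0.076 after 500 ng and 11.18 ± 0.087 after 1500 ng (SD, n = 8, 7, 6, 6 and 8). These 10 means lay within 11.03 to 11.20. At 6 h the OVA means were 11.12 ± 0.12 after saline, 10.94 ± 0.20 after buffer, 11.08 ± 0.18 after 150 ng, 11.38 ± 0.13 after 500 ng and 11.30 ± 0.12 after 1500 ng (SD, n = 8, 8, 7, 8 and 8). The naive means were 11.14 ± 0.34 after saline, 11.24 ± 0.27 after buffer, 11.12 ± 0.12 after 150 ng, 11.20 ± 0.15 after 500 ng and 11.26 ± 0.19 after 1500 ng (SD, n = 8, 6, 8, 8 and 8). The OVA 500 and 1500 ng groups at 6 h were the highest of the 20 and the OVA buffer group at 6 h the lowest, with no gap between neighbours in the order larger than the larger SD of the pair. Its lowest, median and highest values in OVA lungs at 6 h were 11.2, 11.37 and 11.64 after 500 ng and 11.15, 11.28 and 11.54 after 1500 ng, against 10.62, 10.97 and 11.21 after buffer. All 8 arrays of either dose lay above the buffer mean, while the ranges overlapped. The rise was 0.45 with 500 ng (SE 0.10, adjusted p = 8.85e-05) and 0.36 with 1500 ng (SE 0.10, adjusted p = 7.04e-04), and 150 ng gave 0.14 (adjusted p = 0.611). At 24 h the 1500 ng difference was close to 0, with a 95% interval of -0.20 to 0.20, and the difference between the effects at 24 h and 6 h passed the test (-0.36, SE 0.14, adjusted p = 0.0195). With the beta-actin covariate it did not (-0.15, adjusted p = 0.556). In naive lungs the interval was -0.14 to 0.26 at 24 h and -0.19 to 0.22 at 6 h.

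The second Il4ra probe set moved the same way in OVA lungs at 6 h, by 1.42 with 1500 ng (SE 0.17, adjusted p = 4.88e-12). Over the 20 group means the r of this second probe set with the beta-actin difference was -0.938, and that of the main one -0.198. Against saline the 1500 ng difference of the main probe set was 0.18 (adjusted p = 0.0935). With the beta-actin covariate it was 0.20 (adjusted p = 0.35), and that of 500 ng was 0.35 (adjusted p = 0.0297). With the covariate and without the 6 gullet keratin arrays the 500 ng difference was 0.30 (adjusted p = 0.0694), so neither call held under both fits. Over the 10 OVA group means Il4ra moved with Il4 (r = 0.896), though for deviations from the group means it was 0.242 over 76 arrays. Ligand and receptor were read from the same RNA. By group means over all 20 groups, Isg20 (r = 0.866), Il1a (0.863) and Spin1 (0.734) were most like Il4ra, and Exd1 (-0.773) least.

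Il13ra1, which joins Il4ra to make the receptor for Il13, had group means of 10.001 to 10.843. At 24 h they were, in OVA lungs, 10.80 ± 0.052 after saline, 10.84 ± 0.11 after buffer, 10.60 ± 0.22 after 150 ng, 10.61 ± 0.19 after 500 ng and 10.51 ± 0.13 after 1500 ng (SD, n = 7, 8, 8, 7 and 7). In naive lungs they were 10.68 ± 0.16 after saline, 10.59 ± 0.19 after buffer, 10.74 ± 0.11 after 150 ng, 10.74 ± 0.18 after 500 ng and 10.53 ± 0.24 after 1500 ng (SD, n = 8, 7, 6, 6 and 8). All 10 groups at 24 h lay at 10.51 or above. At 6 h they were, in OVA lungs, 10.02 ± 0.16 after saline, 10.23 ± 0.12 after buffer, 10.24 ± 0.25 after 150 ng, 10.45 ± 0.26 after 500 ng and 10.71 ± 0.20 after 1500 ng (SD, n = 8, 8, 7, 8 and 8). In naive lungs they were 10.001 ± 0.23 after saline, 10.02 ± 0.20 after buffer, 10.48 ± 0.22 after 150 ng, 10.52 ± 0.15 after 500 ng and 10.40 ± 0.24 after 1500 ng (SD, n = 8, 6, 8, 8 and 8). At 6 h the lowest means belonged to the saline groups of both kinds of lung and to the naive buffer group, and 1 of the 19 gaps between neighbours in the order exceeded the larger SD of the pair. In OVA lungs its lowest, median and highest values after 1500 ng were 10.39, 10.49 and 10.75 at 24 h, against 10.68, 10.84 and 11.05 after buffer. At 6 h they were 10.28, 10.76 and 10.89 after 1500 ng, against 10.08, 10.20 and 10.46 after buffer. The main probe set therefore fell at 24 h, by 0.33 (SE 0.10, adjusted p = 0.00416), and rose at 6 h, by 0.47 (SE 0.09, adjusted p = 6.05e-06), with overlapping groups at both times. It rose in naive lungs at 6 h with every dose, by 0.46 with 150 ng (adjusted p = 5.27e-04), 0.50 with 500 ng (adjusted p = 4.7e-05) and 0.38 with 1500 ng (adjusted p = 0.00639). At 24 h in naive lungs the 1500 ng difference was -0.06 (95% interval -0.25 to 0.14).

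The 4 Il13ra1 probe sets did not move together. With 1500 ng in OVA lungs at 6 h they differed from buffer by 0.47, -0.46, 1.73 and -0.01 from the brightest to the dimmest, the first 3 with adjusted p of 6.27e-06, 7.35e-07 and 4.46e-10 and the last with 0.909, adjusted over all probe sets. At 24 h the 4 values were -0.33, 0.25, -0.77 and 0.05, and again the first 3 passed the test. No direction for Il13ra1 as a gene can be read from these. Over the 20 group means, the r of each probe set with the beta-actin difference was -0.919, 0.876, -0.964 and 0.21 in the same order. With the beta-actin covariate the rise of the main probe set at 6 h was 0.13 in OVA lungs (adjusted p = 0.508) and 0.24 in naive lungs (adjusted p = 0.134), and the fall at 24 h was -0.25 (adjusted p = 0.032). With the mean of all its probe sets the fall at 24 h was -0.20 (adjusted p = 0.0769). The rises in naive lungs at 6 h were -0.16, -0.33 and -0.16 on the second probe set for 150, 500 and 1500 ng. Foxn2 (r = 0.988), Stt3b (0.982) and Zfp236 (0.981) had the group means most like its own, and Yju2 (-0.983) the least.

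**Figure D4:**
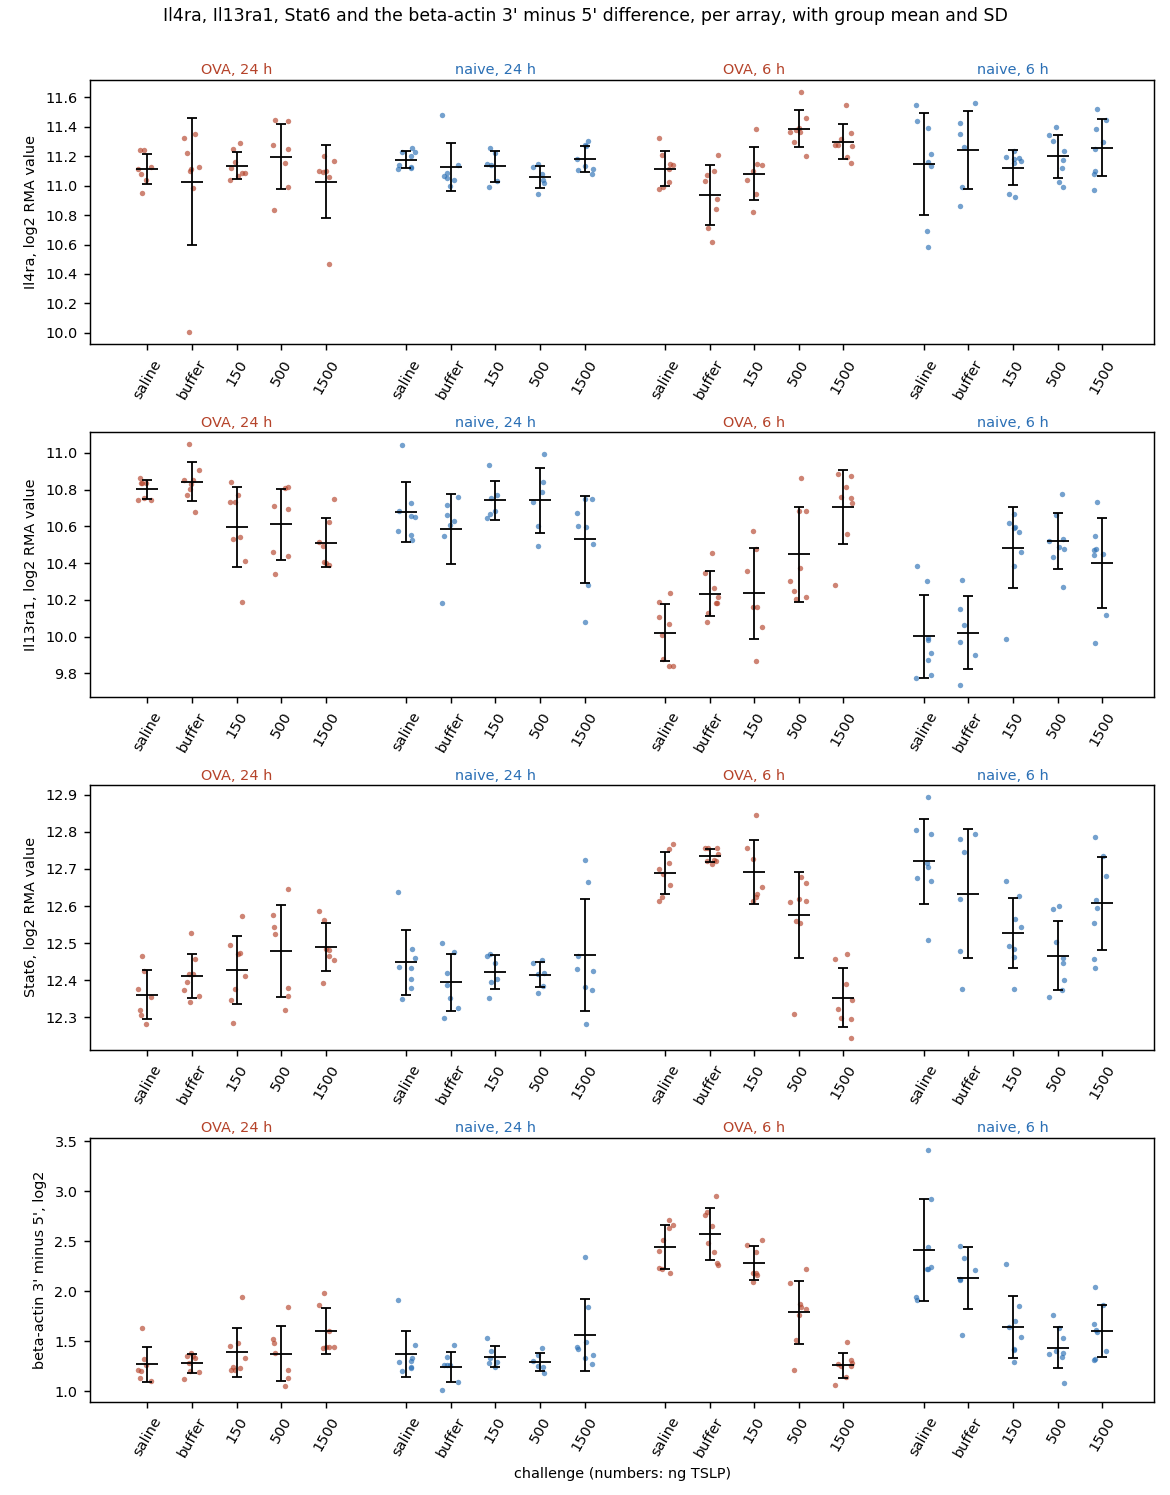
Il4ra, Il13ra1 and Stat6 as log2 RMA values, and the 3′ minus 5′ beta-actin difference in log2, per array in 20 groups of 6 to 8 lungs, with OVA in red, naive in blue, and bars for the group mean and SD. At 6 h the beta-actin difference of OVA lungs averages 1.26 after 1500 ng and 2.57 after buffer, Il13ra1 10.71 and 10.23, and Stat6 12.35 and 12.74.

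Stat6, the factor that carries the signal to the nucleus, had group means of 12.35 to 12.74. The OVA lungs at 24 h averaged 12.36 ± 0.066 after saline, 12.41 ± 0.06 after buffer, 12.43 ± 0.092 after 150 ng, 12.48 ± 0.12 after 500 ng and 12.49 ± 0.065 after 1500 ng (SD, n = 7, 8, 8, 7 and 7). The naive lungs at 24 h averaged 12.45 ± 0.088 after saline, 12.39 ± 0.077 after buffer, 12.42 ± 0.046 after 150 ng, 12.41 ± 0.034 after 500 ng and 12.47 ± 0.15 after 1500 ng (SD, n = 8, 7, 6, 6 and 8). These 10 means lay within 12.36 to 12.49. The OVA lungs at 6 h averaged 12.69 ± 0.056 after saline, 12.74 ± 0.019 after buffer, 12.69 ± 0.086 after 150 ng, 12.58 ± 0.12 after 500 ng and 12.35 ± 0.08 after 1500 ng (SD, n = 8, 8, 7, 8 and 8). The naive lungs at 6 h averaged 12.72 ± 0.12 after saline, 12.63 ± 0.17 after buffer, 12.53 ± 0.093 after 150 ng, 12.47 ± 0.093 after 500 ng and 12.61 ± 0.13 after 1500 ng (SD, n = 8, 6, 8, 8 and 8). The saline and buffer groups at 6 h held the highest means among these, together with the OVA 150 ng group. Its lowest, median and highest values in OVA lungs at 6 h were 12.25, 12.33 and 12.47 after 1500 ng, against 12.71, 12.73 and 12.76 after buffer, and the groups did not overlap. The difference was -0.38 (SE 0.05, adjusted p = 1.79e-11), a fold of 0.767. With 500 ng it was -0.16 (SE 0.05, adjusted p = 0.0049), again without overlap, and with 150 ng -0.04 (adjusted p = 0.793). The naive 500 ng group at 6 h was lower than buffer by 0.17 (SE 0.05, adjusted p = 0.00681), and the 1500 ng difference was -0.03 (95% interval -0.13 to 0.08). At 24 h the 1500 ng differences were 0.08 in OVA lungs (95% interval -0.02 to 0.18) and 0.07 in naive lungs (-0.02 to 0.17).

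The second Stat6 probe set gave -0.05 for 1500 ng in OVA lungs at 6 h (adjusted p = 0.614). The r of the main probe set with the beta-actin difference over 20 group means was 0.961, and that of the second was -0.268. With the covariate the main difference was -0.13 (adjusted p = 0.12). For 500 ng at 6 h the covariate gave -0.013 in OVA lungs (adjusted p = 0.903) and -0.035 in naive lungs (adjusted p = 0.657), and the mean of the Stat6 probe sets gave -0.046 (adjusted p = 0.497) and -0.058 (adjusted p = 0.428), so both 500 ng calls were lost. The part of RNA quality in the Stat6 and Il13ra1 differences was not tested beyond this covariate. The group means most like those of Stat6 were those of Unc45a (r = 0.983), Rgl2 (0.982) and Inf2 (0.981), and the least like were those of Pbrm1 (-0.987).

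**Figure D5:**
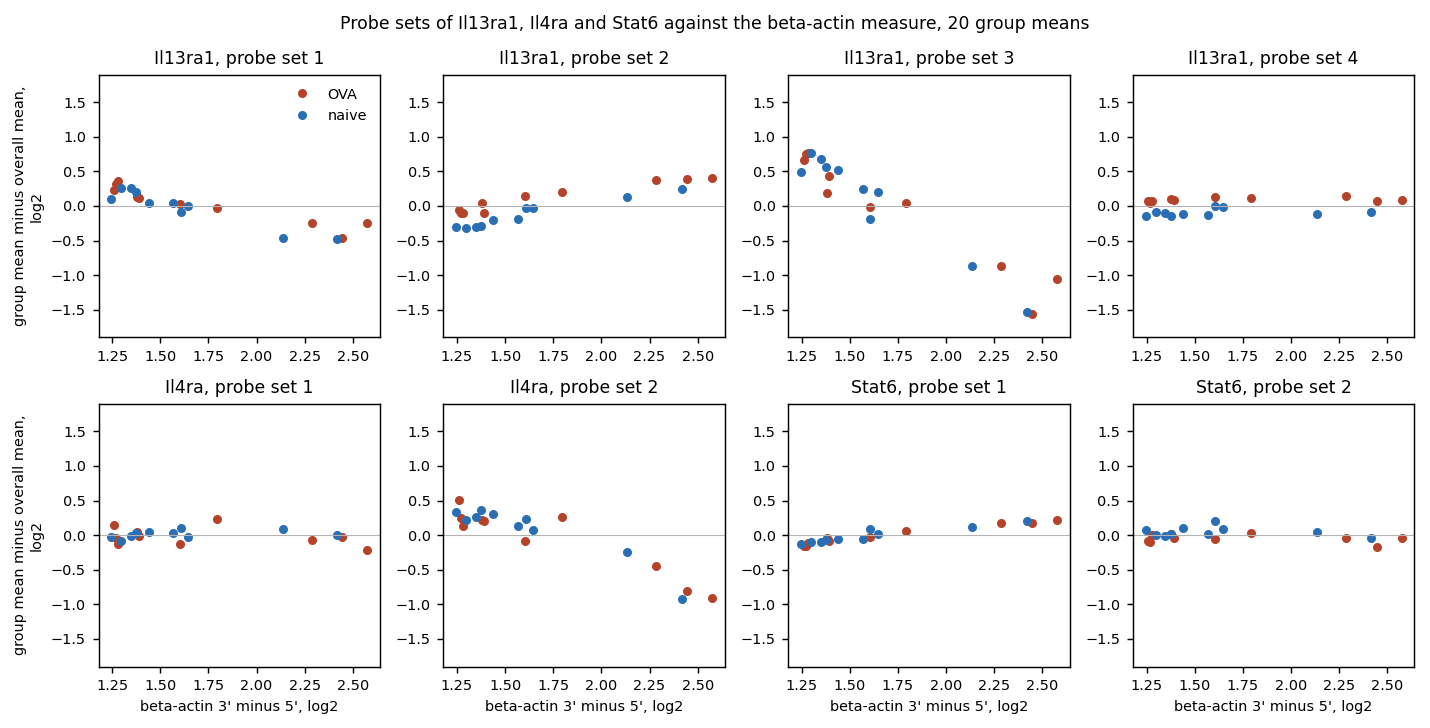
Group means of the 4 Il13ra1, 2 Il4ra and 2 Stat6 probe sets, each minus its overall mean on the log2 scale, against the beta-actin 3′ minus 5′ difference, 1 point per group (20 groups, OVA in red, naive in blue). Il13ra1 probe sets 1 and 3 slope down (r = -0.919 and -0.964), probe set 2 slopes up (0.876), and Stat6 probe set 1 slopes up (0.961).

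Gata3, read from 1 probe set, had group means of 8.32 to 8.96. Among OVA lungs at 24 h they were 8.96 ± 0.16 after saline, 8.41 ± 0.43 after buffer, 8.92 ± 0.22 after 150 ng, 8.96 ± 0.28 after 500 ng and 8.87 ± 0.36 after 1500 ng (SD, n = 7, 8, 8, 7 and 7). Among naive lungs at 24 h they were 8.61 ± 0.16 after saline, 8.70 ± 0.10 after buffer, 8.61 ± 0.15 after 150 ng, 8.75 ± 0.16 after 500 ng and 8.55 ± 0.18 after 1500 ng (SD, n = 8, 7, 6, 6 and 8). At 24 h the OVA buffer group was the lowest of the 10 and the other 4 OVA groups the highest. Among OVA lungs at 6 h they were 8.58 ± 0.15 after saline, 8.32 ± 0.23 after buffer, 8.64 ± 0.16 after 150 ng, 8.63 ± 0.31 after 500 ng and 8.87 ± 0.11 after 1500 ng (SD, n = 8, 8, 7, 8 and 8). Among naive lungs at 6 h they were 8.42 ± 0.23 after saline, 8.60 ± 0.15 after buffer, 8.70 ± 0.19 after 150 ng, 8.72 ± 0.24 after 500 ng and 8.51 ± 0.21 after 1500 ng (SD, n = 8, 6, 8, 8 and 8). At 6 h the OVA buffer group was again the lowest and the OVA 1500 ng group the highest. At 24 h in OVA lungs its lowest, median and highest values were 8.37, 8.93 and 9.31 after 1500 ng, against 7.55, 8.49 and 8.98 after buffer. The groups overlapped, and 6 of 7 arrays given 1500 ng were above the buffer mean. At 6 h they were 8.69, 8.85 and 9.02 after 1500 ng, against 7.97, 8.35 and 8.71 after buffer, with all 8 above the buffer mean and an overlap of the lowest and highest arrays only. The differences were 0.46 at 24 h (SE 0.12, adjusted p = 9.28e-04) and 0.54 at 6 h (SE 0.11, adjusted p = 1.32e-05). At 24 h the lower doses gave similar values, 0.51 with 150 ng (adjusted p = 0.00309) and 0.55 with 500 ng (adjusted p = 9.37e-04). At 6 h they gave 0.31 (adjusted p = 0.281) and 0.30 (adjusted p = 0.0224), the second of which was lost under several alternatives. It was 0.25 without the 6 gullet keratin arrays (adjusted p = 0.0726), 0.24 with array weights (adjusted p = 0.0599), 0.11 with the beta-actin covariate (adjusted p = 0.621) and 0.051 with that covariate and without those arrays (adjusted p = 0.854).

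The Gata3 effect of 1500 ng differed between OVA and naive lungs, by 0.61 at 24 h (SE 0.16, adjusted p = 0.0191) and by 0.62 at 6 h (SE 0.17, adjusted p = 0.00231). With the beta-actin covariate the 6 h value was 0.43 (adjusted p = 0.101). The 24 h value rests on the low OVA buffer group and was not tried against saline. At 24 h Gata3 averaged 8.87 after 1500 ng, 8.41 after buffer and 8.96 after saline in OVA lungs. The naive averages were 8.55, 8.70 and 8.61 in the same order, so 1500 ng lay slightly below saline in both kinds of lung. In naive lungs the 1500 ng difference was -0.15 at 24 h (95% interval -0.38 to 0.08) and -0.08 at 6 h (-0.32 to 0.16). Gata3 was also the 1 member called between the control solutions: in OVA lungs at 24 h it averaged 8.41 ± 0.43 after buffer (SD, n = 8) and 8.96 ± 0.16 after saline (n = 7), a difference of -0.54 (SE 0.12, adjusted p = 0.015), while 0.882% of all genes were called. In the same comparison 2 of 5 T cell markers, Cd3g and Cd4, and 3 of 4 eosinophil markers, Epx, Prg2 and Ccr3, were called lower after buffer, with list medians of -0.57 and -1.53. The mean of the T cell markers per array was 8.53 to 9.91 after buffer against 9.72 to 10.21 after saline, and that of the eosinophil markers 6.25 to 8.02 against 7.39 to 9.10. The part of these cells in the Gata3 difference was not tested. Against saline the 1500 ng difference was -0.08 at 24 h (adjusted p = 0.646) and 0.29 at 6 h (SE 0.11, adjusted p = 0.0207). With the beta-actin covariate it was 0.54 against buffer at 24 h (adjusted p = 1.28e-04) and 0.22 at 6 h (adjusted p = 0.353). A fit of the compared groups alone gave an adjusted p of 0.0705 at 24 h.

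T cell markers were read beside Gata3, which T cells express. Of 5 such genes, Cd4 passed upward at 24 h, and Cd3e, Cd3d and Cd3g at 6 h, in OVA lungs with 1500 ng. Of all genes, 21% passed upward and 17.5% downward at 24 h, and 24.8% and 35.9% at 6 h. These shares stand beside each marker count in OVA lungs below. The mean log2 value of the 5 markers per array had a lowest, median and highest of 9.17, 9.60 and 9.88 after 1500 ng against 8.53, 9.51 and 9.91 after buffer at 24 h. At 6 h it was 9.47, 9.68 and 10.57 after 1500 ng against 8.93, 9.59 and 9.81 after buffer. Within OVA groups Gata3 had an r of 0.559 with Cd4, 0.527 with Cd3e and 0.591 with Il13 over 76 arrays. The part of T cell numbers in the Gata3 rise was not tested. Of 4 endothelial markers, 3 fell at 24 h and 4 rose at 6 h in OVA lungs. Their mean per array was 10.68 to 11.19 after 1500 ng against 11.16 to 11.41 after buffer at 24 h, and 11.07 to 11.32 against 10.36 to 10.96 at 6 h. At 6 h its median was 10.66 after saline, 10.71 after buffer and 11.26 after 1500 ng. The beta-actin difference averaged 2.45, 2.57 and 1.26 in the same groups, and its part in the marker shifts was not tested. Of fat markers, Adipoq and Car3, the 2 measured, both fell at 24 h and rose at 6 h (medians -2.92 and 1.56), with means per array of 5.58 to 10.23 after 1500 ng against 8.20 to 12.76 after buffer at 24 h, and 9.59 to 11.39 against 7.13 to 11.71 at 6 h. Of 5 fibroblast and smooth muscle markers, Pdgfra fell at 24 h, and Col1a1, Col3a1 and Myh11 rose at 6 h. Of 5 macrophage markers, Marco and Cd68 fell and Itgax rose at 24 h, and Cd68 rose at 6 h. Of 6 lung epithelial markers, Cldn18 fell at 24 h, and at 6 h Sftpc, Sftpb and Scgb1a1 fell while Sftpa1 and Cldn18 rose. Siglecf of 4 eosinophil markers fell at 24 h and Ccr3 rose at 6 h, and Cd79b of 2 B cell markers rose at 24 h. The medians of 4 muscle and 5 gullet markers were -0.57 and -0.04 at 24 h and 0.36 and -0.15 at 6 h. The part of these cell types in the members' differences was not tested. Of 4 basophil markers, 3 rose at 24 h and 2 at 6 h in OVA lungs, and 3 at each time in naive lungs. In naive lungs 0.608% of all genes rose at 24 h and 5.53% at 6 h. The mean of the basophil markers per array in OVA lungs at 24 h was 6.21 to 7.83 after 1500 ng against 5.63 to 6.96 after buffer. Ccl20 (r = 0.818), Cd69 (0.814) and Got1 (0.813) were most like Gata3 over the group means, and Card10 (-0.859) least.

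Counted over the members, 3 of 5 passed for 1500 ng against buffer in OVA lungs at 24 h, where 38.5% of all genes did (21% upward, 17.5% downward). All 5 passed in OVA lungs at 6 h, where 60.7% of all genes did (24.8% upward, 35.9% downward). In naive lungs 0 of 5 passed at 24 h, by limma, with 0.978% of all genes (0.608% upward, 0.371% downward), and none had an unadjusted p below 0.05. At 6 h in naive lungs 1 of 5 passed, Il13ra1, with 15.3% of all genes (5.53% upward, 9.82% downward). With 150 ng the members called were 2 at 24 h and 0 at 6 h in OVA lungs, and 0 and 1 in naive lungs, where 10.5%, 0.163%, 0.215% and 27.2% of all genes were called. Il13ra2 and Gata3 had an unadjusted p below 0.05 in the 150 ng comparison of OVA lungs at 6 h, and no member did in that of naive lungs at 24 h. With 500 ng the members called were 2, 4, 0 and 2 in the same order, where 11.8%, 41%, 0% and 42.1% of all genes were called. In the naive 500 ng comparison at 24 h, 637 genes and no member had an unadjusted p below 0.05. Where 38.5% to 60.7% of all genes were called, a count among 5 genes says little about the members. With each lower dose, the 2 calls in OVA lungs at 24 h stood against 10.5% and 11.8% of all genes.

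Against saline, 1500 ng called Stat6 upward and Il13ra1 downward in OVA lungs at 24 h (29.2% of all genes called) and Il13ra1, Il13ra2 and Gata3 upward with Stat6 downward at 6 h (62.1%). In naive lungs no member passed at 24 h (0.793%), with none at an unadjusted p below 0.05, and Il13ra1 passed upward and Stat6 downward at 6 h (42.8%). Between buffer and saline no member passed in OVA lungs at 6 h (0.356% of all genes), where Il13ra1 and Gata3 had an unadjusted p below 0.05. None passed in naive lungs at 24 h (0.00741%) or 6 h (14.9%), and none there had an unadjusted p below 0.05. The effect of 1500 ng differed between 24 h and 6 h for Il4ra, Il13ra1 and Stat6 in OVA lungs (60.2% of all genes) and for Il13ra1 in naive lungs (17.1%). None of these 4 differences passed with the beta-actin covariate, with adjusted p of 0.073 to 0.556. The slope over 150, 500 and 1500 ng passed for Il13ra1 (0.47 per 10-fold dose, SE 0.10) and Stat6 (-0.34, SE 0.05) in OVA lungs at 6 h, where 50.4% of all genes had a slope. Neither slope passed with the beta-actin covariate. No member had a called slope by limma in OVA lungs at 24 h (15%), or in naive lungs at 24 h (0.452%) or 6 h (0.17%), and of these 15 slopes 1, that of Il13ra1 in naive lungs at 24 h, had an unadjusted p below 0.05.

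Il13ra1 and Stat6, each on its main probe set, differed with time after challenge in opposite directions. In OVA lungs Il13ra1 was higher and Stat6 lower at 24 h than at 6 h after saline (0.78 and -0.33; 61% of all genes called) and after buffer (0.61 and -0.32; 61.8%), with no overlap of the times for either gene. In naive lungs the directions were the same after saline (0.68 and -0.27; 61.2%) and after buffer (0.57 and -0.24; 49.9%). There the times overlapped for both genes after buffer, and for Stat6 but not Il13ra1 after saline. Gata3 was higher at 24 h in OVA lungs after saline (0.37, SE 0.12, adjusted p = 0.00343), and with the beta-actin covariate this was 0.085 (adjusted p = 0.704). After 1500 ng the pattern was different, with Stat6 higher by 0.14 and Il4ra lower by 0.27 in OVA lungs (adjusted p = 0.0284 and 0.0304; 30.8%) and Stat6 lower by 0.14 in naive lungs (adjusted p = 0.0454; 11.1%). The beta-actin difference between 24 and 6 h was -1.18 after saline and -1.30 after buffer in OVA lungs, and -1.04 and -0.89 in naive lungs, while after 1500 ng it was 0.34 in OVA and -0.04 in naive lungs. With it as a covariate the Stat6 differences after saline and buffer no longer passed, in OVA or naive lungs, nor did that of Il13ra1 after buffer in OVA lungs (0.28, adjusted p = 0.0993). After 1500 ng in OVA lungs the covariate gave 0.071 for Stat6 (adjusted p = 0.255) and -0.23 for Il4ra (adjusted p = 0.0976), and the mean of the Stat6 probe sets gave 0.083 (adjusted p = 0.25), so these calls were lost too. The second probe set of each gene ran against the main one in these saline and buffer comparisons.

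The genes that feed and read the pathway were taken as lists of 49 genes, of which 41 were measured. In OVA lungs at 24 h, 21 of the 41 rose and 2 fell with 1500 ng against buffer, or 56.1% called, against 38.5% of all genes, with a median of 0.23 against 0.01 over all genes. At 6 h 18 rose and 5 fell, again 56.1%, which was below the 60.7% of all genes, with a median of 0.31 against -0.06. In naive lungs 1 rose at 24 h and 1 fell at 6 h, each 2.44%, against 0.978% and 15.3% of all genes. Against saline the called counts were 5 and 21 in OVA lungs at 24 and 6 h, where 29.2% and 62.1% of all genes were called, and 0 and 10 in naive lungs, where 0.793% and 42.8% were. In naive lungs 8 of the 41 had an unadjusted p below 0.05 at 24 h. Il2rg was not analysed here.

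Of the ligands, Il13 rose in OVA lungs by 1.24 at 24 h (SE 0.31, adjusted p = 9.25e-04) and by 1.69 at 6 h (SE 0.30, adjusted p = 7.22e-07), against buffer. At 24 h its values per OVA array ran from 7.03 to 9.32 after 1500 ng and from 6.36 to 8.75 after buffer. After saline they ran from 7.40 to 9.02, close to the range after 1500 ng. Il4 rose at 6 h by 0.82 (SE 0.18, adjusted p = 3.28e-05) and gave 0.23 at 24 h (adjusted p = 0.34). In naive lungs Il13 gave 0.09 at 24 h and 0.24 at 6 h, and Il4 0.23 and 0.25, none of which passed. Of the 6 receptor kinases and adaptors, Jak3, Tyk2 and Irs2 rose (0.59, 0.21 and 0.21) and Irs1 fell (-0.36) at 24 h. At 6 h each of these 4 moved the other way, Jak3 by -0.62, Tyk2 by -0.25, Irs2 by -0.39 and Irs1 by 0.40, and Jak1 (0.46) and Jak2 (0.20) rose. Jak3, the kinase of Il2rg, also fell in naive lungs at 6 h (-0.37, adjusted p = 0.039). This was the 1 pathway call there. It was lost with quantile normalization, with the beta-actin covariate and with a fit of the compared groups alone. Of 6 inhibitors, Cish, a cytokine-induced SH2 protein that damps Stat signalling, rose at both times (0.61 at 24 h and 0.86 at 6 h), joined by the phosphatase Ptpn1 at 24 h (0.19) and by Socs5 (0.25) and Ptpn6 (0.31) at 6 h. Over all genes in OVA lungs, 21% rose and 17.5% fell at 24 h, with 24.8% and 35.9% at 6 h. The beta-actin difference between 1500 ng and buffer in OVA lungs also had opposite signs, 0.32 at 24 h and -1.31 at 6 h. With it as a covariate fewer pathway genes were called at 6 h, as counted below. Its part in the changes of single pathway genes, here and below, was not tested.

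Of 9 Stat6 target genes of airway epithelium, 6 rose at 24 h in OVA lungs. They included Retnlb (2.32, SE 0.51), Foxa3 (1.08, SE 0.21) and Spdef (1.06, SE 0.22), the last 2 being factors that drive mucus cells. These rises were measured against buffer, and against saline 2 of all 41 pathway genes rose at 24 h in OVA lungs. At 6 h 2 of 9 rose, Spdef (0.61) and the matrix protein Postn (0.57). The share of all genes that rose in these lungs was 21% at 24 h and 24.8% at 6 h. In naive lungs at 24 h Clca1, a goblet cell secretory protein, rose by 3.29 (SE 0.65, adjusted p = 0.00174). This was the 1 pathway call there, and it was lost against saline and with a fit of the compared groups alone. Of 8 targets of macrophages and dendritic cells, 5 rose at 24 h in OVA lungs, among them Ccl22 (1.41, SE 0.31), Ccl17 (1.20, SE 0.32), both chemokines for Th2 cells, and the checkpoint ligand Pdcd1lg2 (1.25, SE 0.32), where 21% of all genes rose. Ccl22 and Pdcd1lg2 were themselves called lower after buffer than after saline in these lungs (-1.24, adjusted p = 0.0324, and -1.30, adjusted p = 0.0321). Against saline 1500 ng gave 0.17 for Ccl22 (adjusted p = 0.746) and -0.05 for Pdcd1lg2 (adjusted p = 0.939). At 6 h 3 of 8 rose, Mrc1 (0.51), Ccl17 (0.93) and Ccl24 (0.99), where 24.8% of all genes rose.

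Of 10 genes of Th2 cells and group 2 innate lymphoid cells, Il5, the eosinophil growth factor, rose at both times in OVA lungs (1.07 at 24 h and 1.18 at 6 h). At 24 h the Il25 receptor Il17rb (0.84), the T cell co-stimulator Icos (0.71) and the chemokine receptor Ccr4 (0.21) also rose, and the factor Maf fell (-0.37). Icos was also called lower after buffer than after saline (-0.88, adjusted p = 0.0244), and against saline it gave -0.17 (adjusted p = 0.597). At 6 h Irf4 (1.17), Maf (0.75), Batf (0.48) and Rora (0.20) rose, and Zfpm1, a partner protein of GATA factors (-0.61), and Il17rb (-0.53) fell. In naive lungs none of the 10 passed at either time by limma, and 0 at 24 h and 1 at 6 h, Maf, had an unadjusted p below 0.05. At 6 h in OVA lungs the pathway calls fell to 7 of 41 with the beta-actin covariate.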

How the data were processed

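Lung RNA from 76 OVA-sensitized and 73 naive mice in 20 groups was measured on Affymetrix arrays, 1 array per animal. The authors deposited RMA values, which are background-corrected, quantile-normalized and summarised log2 values per probe set, per the submitters' processing notes and the file headers. The sources used here do not give its version and settings. The log2 values ran from 2.955 to 15.11, with array medians of 8.968 to 9.164. RNA was extracted with mirVana and had RNA integrity numbers above 6, per the labels' protocols. The number of arrays per group, 6 to 8, limits the precision.

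Of 26166 probe sets, the platform annotation named 1 gene for 22892, several for 260 and none for 3014, which are unnamed here. Each of 13494 genes was read from its probe set of highest mean. No 2 arrays held identical values. limma 3.58.1 in R 4.3.3 fitted 1 mean per group over all arrays (lmFit and eBayes, 129 residual degrees of freedom), two-sided, with Benjamini-Hochberg adjustment over all genes and a threshold of 0.05. The fit was tested on simulated data. RNA quality was compared by exact permutation tests, two-sided (scipy 1.17.1). Alternatives covered the probe set, a filter on dim genes, quantile normalization, array weights, the prior, a replicate block, arrays left out, the beta-actin covariate, saline as the baseline and a fit of the compared groups alone. Named genes were the members, the ligands, up to 3 genes of smallest p per list and comparison, and the 3 most like genes of each member with the least like one. All called genes of lists with 5 or fewer calls in a direction, and Il13 partners of Il13ra2, were added after their values were seen. The members and lists were chosen with earlier results of these data known.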

Additional observations from a re-analysis of the deposited data

Results flagged for a closer look

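Of 100 sets of values, each 1 member in 1 group, 10 held an array far from the others by Dixon's test, where chance gives about 1 in 20. Il4ra was low in replicate 2 of the OVA buffer group at 24 h (10.004, with the nearest array at 10.98) and in replicate 1 of the OVA 1500 ng group at 24 h (10.47, nearest 11.06). It was high in replicate 5 of the naive buffer group at 24 h (11.48, nearest 11.14). The same replicate 5 was low for Il13ra1 (10.18, nearest 10.55). Il13ra1 was also high in replicate 1 of the naive saline group at 24 h (11.04) and low in replicate 4 of the naive 150 ng group at 6 h (9.99). Il13ra2 was low in replicate 6 of the naive 1500 ng group at 24 h (5.755, nearest 6.117). Stat6 was high in replicate 3 of the naive saline group at 24 h (12.64) and low in replicate 1 of the OVA 500 ng group at 6 h (12.31). Gata3 was high in replicate 8 of the naive 500 ng group at 6 h (9.249, nearest 8.803).

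The effect of 1500 ng TSLP against buffer differed between groups, by limma, in 8 cases. Between OVA and naive lungs at 6 h the difference was 1.15 for Il13ra2, -0.36 for Stat6 and 0.62 for Gata3, and at 24 h it was 0.61 for Gata3. Between 24 h and 6 h it was -0.44 for Il13ra1 in naive lungs, and -0.36 for Il4ra, -0.81 for Il13ra1 and 0.46 for Stat6 in OVA lungs. In OVA lungs at 6 h the beta-actin difference also moved with the 1500 ng groups, and its part in these differences was not tested beyond the covariate.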

How the results depend on the processing

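Of 55 called member results, 18 kept their call and direction under every alternative that gave a value, single probe sets included, and 37 did not. The 18 were 10 of 12 for Il13ra2, 7 of 12 for Gata3, 1 of 13 for Stat6, 0 of 13 for Il13ra1 and 0 of 5 for Il4ra. With the single probe sets set aside 25 did, 6 of them of Il13ra1. Saline as the baseline, the compared groups alone and arrays left out were run for 1500 ng against buffer only. The kept Il13ra2 and Gata3 calls for 150 and 500 ng in OVA lungs at 24 h were therefore not tried against saline. The same holds for the kept Gata3 effect difference between OVA and naive lungs at 24 h. Gata3 in OVA lungs at 24 h averaged 8.96 after saline, 8.92 after 150 ng, 8.96 after 500 ng and 8.41 after buffer. Il13ra2 averaged 8.18, 8.35, 8.66 and 7.31 in the same order. Leaving out each array in turn changed no member call for 1500 ng against buffer. The difference for Il13ra2 then ran from 0.98 to 1.36 at 24 h and from 1.04 to 1.29 at 6 h in OVA lungs, and that for Gata3 from 0.34 to 0.54 and from 0.49 to 0.60. The filter on dim genes removes Il13ra2 and Gata3 by construction. With it, 1500 ng called 1 member in OVA lungs at 24 h and 3 at 6 h, the lower doses 6 in place of 11, OVA against naive 3 in place of 12 and buffer against saline 0 in place of 1. Buffer against saline gave 2 calls with the mean of probe sets and 2 with array weights. For 1500 ng in naive lungs at 6 h the 1 member call became 0 with the mean of probe sets, with the beta-actin covariate (0 also without the gullet keratin arrays) and with the compared groups alone, and 2 against saline. The covariate left 1 member call in OVA lungs at 6 h, with or without the gullet keratin arrays. It left 4 time calls in place of 12 (6 without those arrays), 2 effect differences in place of 8 (2 without them) and 0 slopes in place of 2 (1 without them), and array weights gave 4 slopes. The cause of these shifts was not tested.

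Pathway calls for 1500 ng in OVA lungs at 6 h were 14 of 41 with the dim filter and 7 with the covariate, with or without the gullet keratin arrays. At 24 h they were 12 with the filter and 5 against saline. In naive lungs at 24 h the 1 call, that of Clca1, became 0 against saline and 0 with the compared groups alone. In naive lungs at 6 h the 1 call was that of Jak3. The count there became 0 with the filter, with quantile normalization, with the covariate and with the compared groups alone. It was 6 with array weights, 4 without the gullet keratin arrays and 10 against saline. Leaving out 1 array gave 0 to 5 there, with 5 without replicate 6 of the naive buffer group, a gullet keratin array, 2 without replicate 5 of the naive 1500 ng group, and 0 without buffer replicates 2, 3 or 5 or 1500 ng replicates 2, 4 or 6.

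Some directions changed. Gata3 after 1500 ng in OVA lungs at 24 h was -0.084 against saline. Il4ra in OVA saline lungs between 24 and 6 h was 0.53 with the mean of probe sets and 1.06 on its second probe set, which also gave 0.55 for 500 ng in naive lungs at 6 h and 0.58 between times in naive buffer lungs. Il13ra1 probe set 2 gave, for 1500 ng, 0.25 in OVA lungs at 24 h, -0.46 in OVA lungs at 6 h and -0.16 in naive lungs at 6 h. At 6 h it gave -0.20 for 500 ng in OVA lungs, and -0.16 for 150 ng and -0.33 for 500 ng in naive lungs. For OVA against naive after 1500 ng it gave 0.33 at 24 h and -0.029 at 6 h. Between times it gave -0.49 and -0.51 in OVA saline and buffer lungs and -0.53 and -0.43 in naive ones. Its effect differences were -0.30 between OVA and naive lungs at 6 h, and 0.71 in OVA and 0.28 in naive lungs between times, and its slopes in OVA lungs 0.25 at 24 h and -0.43 at 6 h. Il13ra1 probe set 4 gave 0.046 at 24 h and -0.012 at 6 h for 1500 ng in OVA lungs, and 0.25 for OVA against naive after 1500 ng at 24 h. Between times it gave -0.028 and -0.0050 in OVA saline and buffer lungs and -0.058 and -0.018 in naive ones, with 0.058 for the effect difference in OVA lungs and -0.080 for the slope at 6 h. Stat6 probe set 2 gave 0.068 in OVA and 0.051 in naive lungs for 500 ng at 6 h. Between times it gave 0.068 and 0.039 in OVA saline and buffer lungs and 0.057 and 0.028 in naive ones, and -0.010 for the effect difference in OVA lungs. The cause was not tested.

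Replicate numbers mark different animals and so do not pair the groups. Same-numbered arrays had a median correlation of deviations of 0.0096 to 0.0955 in the 4 comparisons of 1500 ng with buffer, and in each comparison 0 to 2 arrays correlated best with their own number. With the replicate block the member calls for 1500 ng were 3 and 5 in OVA lungs and 0 and 1 in naive lungs at 24 and 6 h, and no member call changed.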
